A study of Arabidopsis thaliana with 9 samples.

Results

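The 36 genes described here encode the parts that perceive auxin, a plant growth hormone, together with 1 enzyme that makes it. They were taken by locus identifier from the 38202 gene rows of the count table. They are the 29 Aux/IAA repressors (IAA1 to IAA20 and IAA26 to IAA34), the 6 receptor genes TIR1 and AFB1 to AFB5, and TAA1. All 36 identifiers had a row, and 31 passed the filter on low counts, among them 24 Aux/IAA genes, the 6 receptors and TAA1. RNA was sequenced from leaves of Arabidopsis thaliana, ecotype Columbia, raised in MS medium, used widely for plant culture, for 6 days. The 3 groups of 3 libraries were named by the agent alone: CK, taken as the group without silver since no other control is named, Ag+ (ionic silver) and AgNPs (nanoparticles of silver). No transgene, mutant or further treatment is named for any group, and neither dose nor length of exposure is stated. Pooled RNA is mentioned, and nothing states that libraries were independent cultures, so the p-values measure only the spread between these libraries, which may be technical.

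Auxin works by removing repressors. TIR1 and its AFB relatives are F-box proteins, the substrate-binding parts of a ubiquitin ligase. Auxin sits between such a receptor and a short stretch of an Aux/IAA protein, the degron, and the Aux/IAA protein is then marked for destruction. Aux/IAA proteins otherwise hold auxin response factors (ARFs), transcription factors, in an inactive state on their target genes. Many Aux/IAA genes are themselves ARF targets, so they are used as readouts of auxin response. TAA1 makes indole-3-pyruvate from tryptophan, the precursor that YUCCA (YUC) enzymes turn into the auxin indole-3-acetic acid. The comparisons asked whether these genes differed between leaves with and without silver, and between both forms of silver.

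The sequences below are shown because the family splits by them. The degron core is coded by the codons of glycine, tryptophan, proline and proline in a row. It was searched in frame, on the coding strand, in the RefSeq coding sequences of the assembly TAIR10.1. It stood in 23 of the 29 Aux/IAA genes and was not found in IAA20, IAA30, IAA31, IAA32, IAA33 and IAA34. Of 27444 coding genes 34 held it, 11 of them outside the family. The longer form, with a valine codon after the core, stood in 17 coding genes, all of them Aux/IAA genes. Capitals mark the longer form in the 5 genes that hold it and whose levels the results turn on.
IAA6 (chr1:19673323-19673349, minus strand): gcggtgGGATGGCCACCTGTGtgttct
IAA14 (chr4:8349478-8349504, minus strand): gtggtgGGTTGGCCACCGGTGaggaac
IAA19 (chr3:5264310-5264336, plus strand): gtggtgGGGTGGCCACCGGTTtgttct
IAA28 (chr5:9033815-9033841, plus strand): gtggtgGGATGGCCGCCGGTGagatca
IAA29 (chr4:15583945-15583971, plus strand): gttgttGGATGGCCACCAGTAaaaaca

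TIR1, AFB1, AFB2 and AFB3 carry another regulatory sequence, a target site for the microRNA miR393, which is known to cut receptor transcripts. Both miR393 genes give the same mature RNA, shown first in DNA letters with the seed, bases 2 to 8, in capitals. The receptor sites were found by sliding the reverse complement of the 22 bases along each coding sequence, and capitals mark bases that do not pair by the Watson-Crick rules.
miR393a-5p (chr2:16652111-16652132, plus strand): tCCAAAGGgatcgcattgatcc
TIR1 (chr3:23273727-23273748, minus strand): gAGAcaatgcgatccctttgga
AFB1 (chr4:1405341-1405362, minus strand): gAGAcCatgcgatccctttgga
AFB2 (chr3:9870237-9870258, plus strand): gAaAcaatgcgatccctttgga
AFB3 (chr1:4369085-4369106, minus strand): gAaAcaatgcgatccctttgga

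AFB2 and AFB3 paired at 20 of 22 bases, TIR1 at 19 and AFB1 at 18. TIR1, AFB2 and AFB3 were the 3 coding sequences with the fewest unpaired bases among 27435 searched, with 3 or fewer each. AFB1 left 4 bases unpaired, and 6 coding sequences, AFB1 included, left 4 or fewer. The best windows of AFB4 and AFB5 left 7 and 8 bases unpaired, as few as in 1060 and 5264 coding sequences. The mature miRNA was not measured in these libraries. The row of the MIR393a precursor held 0 to 2 counts per library. That of MIR393b held 4, 5 and 2 counts in CK, 0, 0 and 2 with Ag+, and 2, 4 and 4 with AgNPs.

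Also shown, because both were called higher with AgNPs, are the 250 bases before the annotated gene start of IAA6 and IAA19. Both genes, which encode similar proteins (71.4% identity of their coding sequences), share a run of 23 identical bases there. It was the longest run shared by any of the 630 pairs among the 36 genes, the next longest being 18 and the median 8. The run starts 181 bases before IAA6 and 186 bases before IAA19. It holds TGTCTC, the classical auxin response element, and CACATG on its reverse strand, a form of the E-box that basic helix-loop-helix factors such as PIFs can bind. Capitals mark, on either strand, the auxin elements (TGTCTC or its variant TGTCGG) and the boxes (the G-box CACGTG or the form CACATG).
IAA6 (chr1:19673653-19673902, minus strand): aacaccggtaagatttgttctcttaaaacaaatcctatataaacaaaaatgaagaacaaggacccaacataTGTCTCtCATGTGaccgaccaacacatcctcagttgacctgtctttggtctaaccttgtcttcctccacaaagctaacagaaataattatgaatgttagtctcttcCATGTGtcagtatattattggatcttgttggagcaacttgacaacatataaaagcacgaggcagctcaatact
IAA19 (chr3:5263751-5264000, plus strand): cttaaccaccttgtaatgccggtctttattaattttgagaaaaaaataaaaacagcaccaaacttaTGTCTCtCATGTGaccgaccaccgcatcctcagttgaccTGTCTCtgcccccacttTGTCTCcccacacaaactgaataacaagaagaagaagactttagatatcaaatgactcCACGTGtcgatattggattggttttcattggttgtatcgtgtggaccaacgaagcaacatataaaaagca

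Over all 36 genes, TGTCTC stood in 10 windows (27.8%, against 10.9% of the 27443 windows of protein-coding genes), TGTCGG in 6 (16.7% against 4.16%), CACGTG in 4 (11.1% against 6.49%) and CACATG in 8 (22.2% against 11.1%). Both strands were searched, and a copy of the palindrome CACGTG was counted once. The end of CACATG or CACGTG can share the bases TG with the start of TGTCTC or TGTCGG, which happens in neither window shown. IAA19 held 3 copies of TGTCTC with CACGTG and CACATG, and IAA6 held TGTCTC with 2 copies of CACATG. IAA32 held TGTCTC and CACATG. None of the 4 motifs stood in the windows of IAA14, IAA28, IAA29 and TAA1.

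Total counts per library were 16884010 to 19876151. Levels are given as CPM, the count scaled to library size with TMM factors. Where 3 values are given for a group, they are those of libraries 1, 2 and 3 in that order. A change is called where edgeR's quasi-likelihood test gave an adjusted p under 0.05 over the 19889 genes tested, and log2 fold changes carry a standard error (SE). CK 3 stood apart from the other CK libraries and AgNPs 1 from the other AgNPs libraries. In such bulk samples, fewer cells of a type and less RNA per cell cannot be told apart. The heat-shock genes of the marker lists summed to 77.3, 78.7 and 595 CPM in CK, to 62.0, 46.4 and 185 with Ag+, and to 221, 665 and 888 with AgNPs. Root markers had a median of 6.27 CPM in AgNPs 1 and of 0.703 to 1.43 in the other 8 libraries (sums 137 against 67.4 to 88.7), and none of the 15 was at 0 in any library. The 2 seed markers, CRA1 (called higher in both silver groups) and OLEO1 (called higher with Ag+), summed to 0.0993 to 0.563 CPM in CK, 2.23 to 24.2 with Ag+ and 3.94 to 8.36 with AgNPs. Neither reached in CK 1 or CK 2 the level that the filter on low counts asks for. Both thus passed through silver libraries, where they are high, and their calls are a description. Leaf markers summed to 21870 to 31340 CPM in CK, 38530 to 44820 with Ag+ and 28270 to 39930 with AgNPs. With Ag+ 3 of the 6 were called higher, LHCB1.2, LHCB2.1 and LHCB3, beside 3.52% of all genes. With AgNPs 1 was called higher, LHCB1.2, beside 2.23% of all genes. The leaf markers RBCS1A, RCA and PSBO1 were called in neither. No heat-shock, root or shoot apex gene of the lists was called in any comparison. CK 3 held the lowest of the 3 CK values in 16 of the 31 tested genes (39.8% of all genes), Ag+ 1 held the lowest Ag+ value in 17 (33.7%), and AgNPs 1 held the highest AgNPs value in 19 (42.9%). The part of these libraries and markers in the results was not tested beyond the fits without them given below.

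Before any comparison, the levels of the family spread widely. Per kilobase of exon, IAA16, IAA7 and IAA2 stood highest and IAA6, IAA5 and IAA32 lowest among the tested genes, and the same 3 stood highest and the same 3 lowest per kilobase of coding sequence. IAA16 had 105.9, 130.2 and 73.5 CPM per kb in CK, 130.0, 146.8 and 109.8 with Ag+, and 132.9, 110.4 and 109.7 with AgNPs. IAA7, also known as AXR2, had 92.2, 81.5 and 81.4 CPM per kb in CK, 52.9, 77.3 and 58.3 with Ag+, and 100.7, 83.1 and 72.5 with AgNPs. IAA2 had 139.3, 86.8 and 41.1 CPM per kb in CK, 54.3, 56.3 and 50.6 with Ag+, and 64.3, 78.3 and 94.2 with AgNPs. The CK libraries of IAA2 thus spanned 3.39-fold, and those of IAA4 (3.18), IAA29 (3.47) and IAA5 (4.36) also more than 3-fold. IAA5 was low throughout, with 5, 19 and 19 counts in CK, 7, 4 and 12 with Ag+, and 5, 16 and 14 with AgNPs. Its groups overlapped. In CPM per kb, IAA16, IAA7 and IAA2 overlapped in the CK libraries, so their order there did not exceed the spread. With Ag+ and AgNPs all IAA16 libraries lay above those of the other two.

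**Figure D1:**
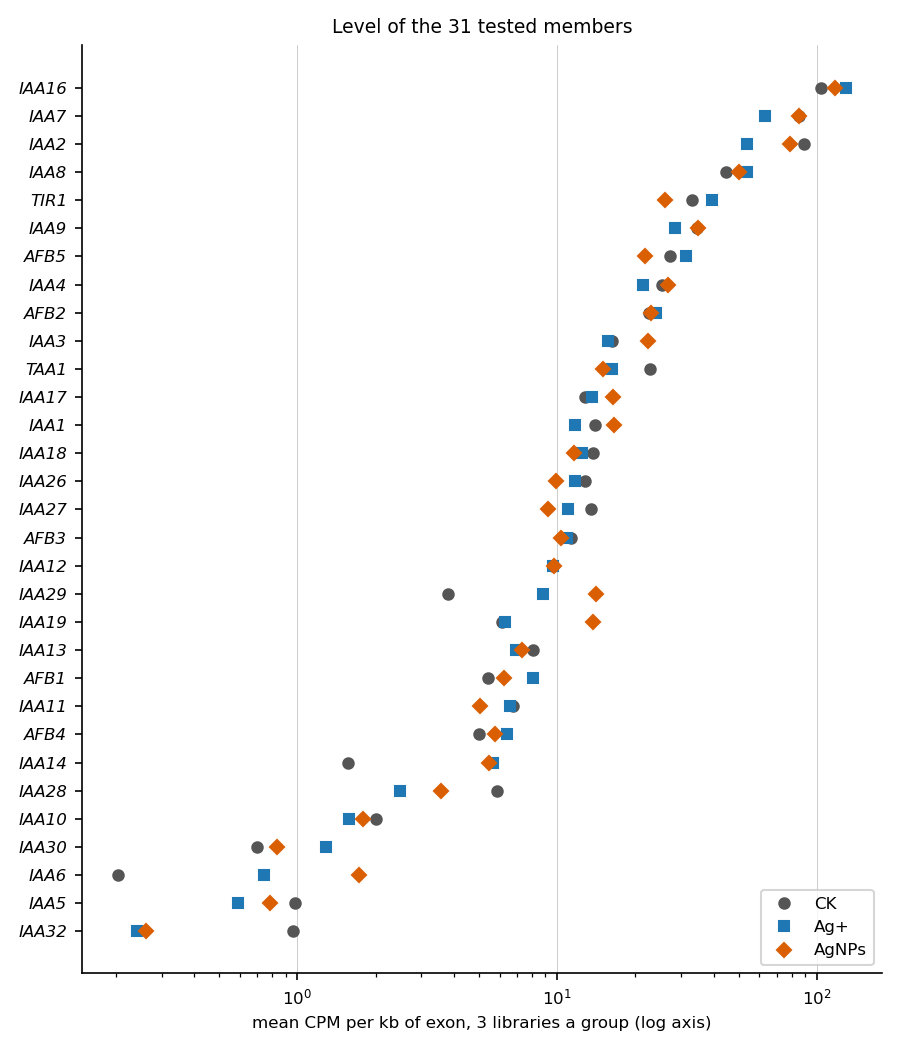
Mean CPM per kilobase of exon (log axis) of the 31 tested genes in CK (circles), Ag+ (squares) and AgNPs (diamonds), ordered by the mean over all 9 libraries. IAA16 stood at 103, 129 and 118 CPM per kb in CK, Ag+ and AgNPs, and IAA32 at 0.962, 0.242 and 0.262.

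The 5 genes left out for low counts were IAA15 (0 to 3 counts per library), IAA20 (2 to 9), IAA31 (0 to 6), IAA33 (0 or 1) and IAA34 (0 to 12). The last lies near the level needed and is described with IAA32 below. IAA33 held 2 counts over the 3 CK libraries, 1 over Ag+ and 0 over AgNPs.

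In leaves with Ag+, 4 of the 31 tested genes were called against CK, 2 higher (IAA6 and IAA14) and 2 lower (IAA28 and IAA32). That was 12.9% of the tested members, beside 5.57% of all genes tested (3.52% higher, 2.05% lower). The 6 receptors and TAA1 were not called. The groups did not overlap in 10 of 31 genes, beside 23.3% of all genes. The median log2 fold change over the 31 genes was -0.04 (13 positive, 18 negative), and over all genes -0.01. IAA6 and IAA32 passed the filter on low counts through 1 group each, AgNPs and CK, so these counts are a description. No label pairs the libraries. The library numbers were taken as pairing Ag+ with CK because deviations of same-numbered libraries correlated weakly, at 0.123 to 0.231. With the number as a block 2 genes were called, IAA14 and IAA28, beside 6.22% of all genes. With the block in the 6 libraries compared it was 3, with IAA32 added, beside 8.47% of all genes. The count was 2 without CK 1, CK 2, Ag+ 1, AgNPs 2 or AgNPs 3, in fits that called 2.57% to 4% of all genes. It was 1 without Ag+ 2, beside 2.07% of all genes. Without CK 3 it was 4, with IAA2 and TAA1 in place of IAA6 and IAA32, beside 6.41% of all genes. Without both CK 3 and AgNPs 1 it was 6, in a fit that called 10% of all genes.

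In leaves with AgNPs, 4 of the 31 genes were called against CK, 3 higher (IAA6, IAA14 and IAA19) and TAA1 lower. That was 12.9%, beside 3.32% of all genes (2.23% higher, 1.09% lower). IAA6 passed the filter on low counts through AgNPs, where it is high, so this count too is a description. The groups did not overlap in 9 genes, beside 22.6% of all genes. The median over the 31 genes was 0.01 (17 positive, 14 negative), and over all genes -0.003. The count was 2, IAA6 and IAA14, without CK 2, Ag+ 1, Ag+ 2, AgNPs 2 or AgNPs 3. Those fits called 1.11% to 2.61% of all genes. It was 5 without both CK 3 and AgNPs 1, in a fit that called 8.03% of all genes. DESeq2 called 7, beside 6.43% of all genes. Both silver comparisons share the CK libraries, so their likeness is no independent result.

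**Figure D2:**
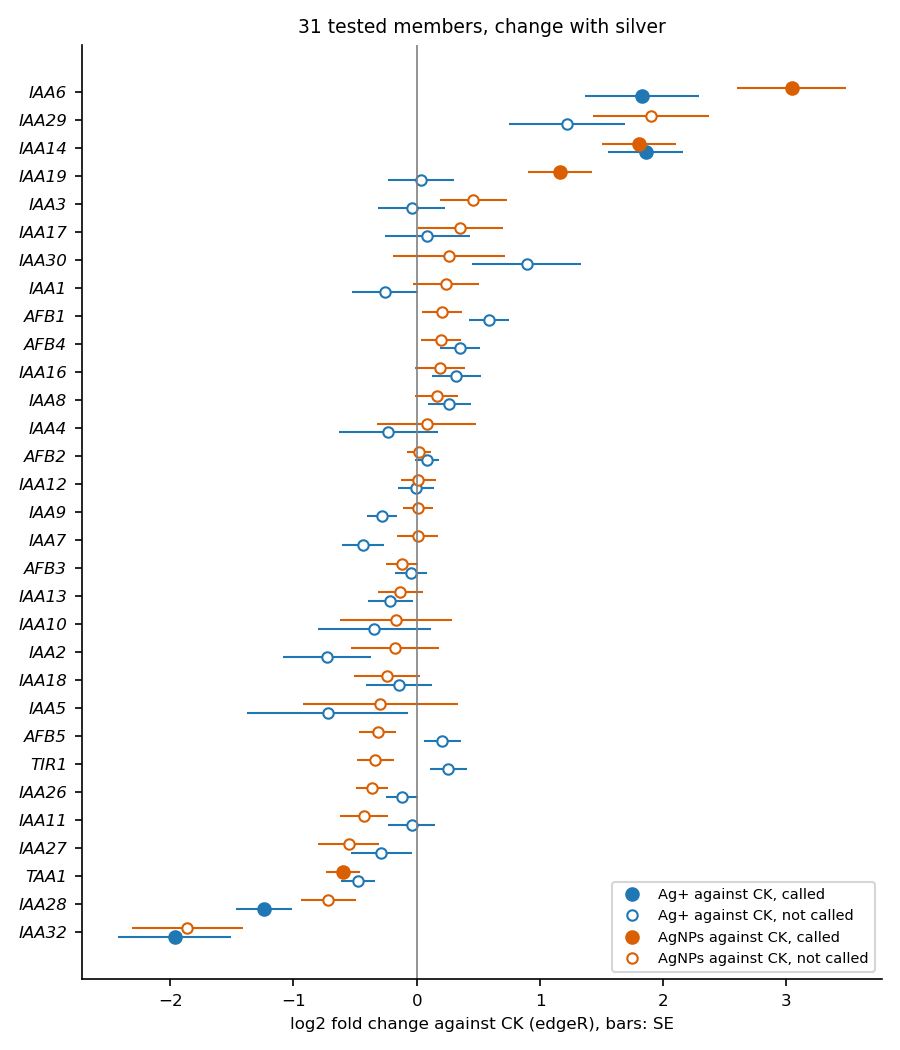
Log2 fold change against CK of the 31 tested genes in Ag+ and AgNPs, with the SE as bars, filled where called and with open symbols where not, ordered by the AgNPs value. IAA6 stood highest with AgNPs, at 3.04, and IAA32 lowest in both, at -1.97 and -1.86.

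IAA14 (AT4G14550, chr4:8347822-8350263 on the minus strand of TAIR10.1), known as SOLITARY-ROOT for its role in lateral root formation, was higher with both forms of silver. It stood at 3.82, 3.3 and 1.74 CPM in CK, at 12.2, 12.1 and 7.91 with Ag+, and at 12.5, 10.2 and 8.31 with AgNPs. Every silver library lay above every CK library. The mean was 2.95 ± 1.08 CPM in CK (SD, n = 3), 10.7 ± 2.44 with Ag+ and 10.3 ± 2.09 with AgNPs. The log2 fold change was 1.86 with Ag+ (SE 0.30, edgeR adjusted p = 0.00844) and 1.80 with AgNPs (SE 0.30, edgeR adjusted p = 0.0127). It was called in all 18 alternatives in both comparisons, those without CK 3 and AgNPs 1 included. Its neighbour IAA1 (AT4G14560), 10732 bases away on the other strand with no coding gene between, had -0.25 and 0.24 and was not called. IAA7, whose coding sequence is nearest to that of IAA14 (77.7% identity), had -0.44 and 0.01.

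IAA6 (AT1G52830, chr1:19672476-19673652, minus strand) was low in CK and higher with silver. It had 3, 3 and 4 counts in CK, 12, 13 and 7 with Ag+, and 20, 33 and 30 with AgNPs. The 3 groups did not overlap, with CK lowest and AgNPs highest. The level rose from 0.175 ± 0.03 CPM in CK (SD, n = 3) to 0.639 ± 0.20 with Ag+ and 1.48 ± 0.22 with AgNPs. The log2 fold change was 1.83 with Ag+ (SE 0.46, edgeR adjusted p = 0.0494) and 3.04 with AgNPs (SE 0.44, edgeR adjusted p = 0.00646). With Ag+ the call lay at the threshold and was kept in 1 of 16 alternatives, that with upper-quartile factors (adjusted p = 0.0482). It was lost with the replicate block (adjusted p = 0.09), without each of the 9 libraries in turn (0.0541 to 0.153), with DESeq2's size factors (0.051), with DESeq2 (0.0607), with limma voom (0.1) and with no filter (0.0795). With AgNPs the call was lost only in the blocked fit of the 6 libraries (adjusted p = 0.0615) among 18 alternatives. IAA6 passed the filter on low counts through AgNPs, where it is high, so its calls are a description.

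IAA19 (AT3G15540, chr3:5264001-5265695, plus strand), known as MASSUGU2 for its role in the bending and elongation of the seedling stem, was higher with AgNPs. It stood at 8.88, 5.24 and 4.5 CPM in CK, at 5.74, 8.00 and 5.33 with Ag+, and at 12.7, 13.8 and 15.2 with AgNPs. The AgNPs libraries lay above all others, while Ag+ and CK overlapped. Against CK the fitted log2 value was 1.16 with AgNPs (SE 0.26, edgeR adjusted p = 0.0421) and 0.03 with Ag+ (edgeR adjusted p = 0.967). AgNPs against Ag+ gave 1.13 (edgeR adjusted p = 0.0908), so a difference between the forms of silver was not called. That difference was called by DESeq2 (adjusted p = 0.00397) and without CK 1 (0.0329) or CK 3 (0.0462). The call against CK was lost without each library but CK 1, at adjusted p = 0.051 to 0.166. It was also lost with the replicate block, and with only the 6 libraries compared, with or without that block. The run of bases shared with IAA6, shown above, holds 1 of its 3 TGTCTC motifs.

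IAA29 (AT4G32280), known to be induced by shade through PIF factors, was not called in either comparison. It stood at 5.01, 7.46 and 2.15 CPM in CK, at 11.9, 11.3 and 10.7 with Ag+, and at 8.36, 20.6 and 25.5 with AgNPs. All 6 silver libraries lay above the 3 CK libraries, and AgNPs 1 lay below the other AgNPs libraries. The log2 fold change was 1.22 with Ag+ (SE 0.47, edgeR adjusted p = 0.194) and 1.90 with AgNPs (SE 0.47, edgeR adjusted p = 0.0682). Without CK 3 and AgNPs 1 the values were 0.86 (adjusted p = 0.0234) and 1.89 (0.00111). Without AgNPs 1 alone the second was 2.25 (adjusted p = 0.0198).

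IAA28 (AT5G25890, chr5:9033204-9035140, plus strand), a repressor known from lateral root initiation, was lower with Ag+. It stood at 7.99, 6.94 and 9.51 CPM in CK, at 2.42, 3.56 and 4.34 with Ag+, and at 5.23, 5.02 and 4.64 with AgNPs. CK lay above both silver groups, and Ag+ lay below AgNPs. The log2 fold change was -1.24 with Ag+ (SE 0.23, edgeR adjusted p = 0.0142), and the call was lost only without Ag+ 2 (adjusted p = 0.0599). With AgNPs it was -0.72 (SE 0.22, edgeR adjusted p = 0.127), and AgNPs against Ag+ gave 0.52 (edgeR adjusted p = 0.326).

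IAA32 (AT2G01200, chr2:117969-120095, plus strand) belongs to the 6 genes without the degron core. It had 27, 37 and 38 counts in CK, 4, 6 and 13 with Ag+, and 9, 11 and 7 with AgNPs. Every CK library lay above every silver library. The log2 fold change was -1.97 with Ag+ (SE 0.46, edgeR adjusted p = 0.0365) and -1.86 with AgNPs (SE 0.45, edgeR adjusted p = 0.0575). The Ag+ call was lost with the replicate block (adjusted p = 0.0523) and with only the 6 libraries compared. It was also lost without any single CK library, Ag+ 1, Ag+ 2, AgNPs 2 or AgNPs 3 (adjusted p = 0.0584 to 0.144). With AgNPs it was called without Ag+ 3 (adjusted p = 0.0452). The gene AT2G01210 on the other strand covers 44.2% of its exon bases, and reads of the pair cannot be told apart as the strand setting is unknown. That gene held 118 to 189 counts per library, with log2 fold changes of 0.42 and -0.06 (not called). IAA34 (AT1G15050), the nearest relative by coding sequence (68.8% identity) and also without the core, did not pass the filter on low counts used with edgeR. It had 1, 0 and 2 counts in CK, 5, 7 and 1 with Ag+, and 9, 12 and 11 with AgNPs, with AgNPs above both other groups. The ratio of AgNPs to CK was 11, with a 95% interval of 3.45 to 56.3 that covers counting error only. DESeq2, which filters in its own way, called it in this comparison. The gene AT1G15060 on the same strand shares 125 of the 1015 exon bases of IAA34 (12.3%), and reads there cannot be told apart by strand. AT1G15060 held 320 to 398 counts per library, with log2 fold changes of 0.37 and 0.16 (not called).

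TAA1 (AT1G70560, chr1:26604855-26607652, plus strand) was lower with AgNPs. It stood at 38.6, 36.5 and 30.5 CPM in CK, at 26.8, 24.4 and 24.5 with Ag+, and at 24.2, 25.5 and 19.98 with AgNPs. All 6 silver libraries lay below the CK libraries. Its fitted log2 fold change was -0.60 with AgNPs (SE 0.14, edgeR adjusted p = 0.0456) and -0.48 with Ag+ (SE 0.14, edgeR adjusted p = 0.077). The AgNPs call was lost without each library but CK 3, at adjusted p = 0.0653 to 0.17. It was also lost with only the 6 libraries compared, with or without the replicate block. The Ag+ value was called without CK 3 (-0.59, adjusted p = 0.0328).

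**Figure D3:**
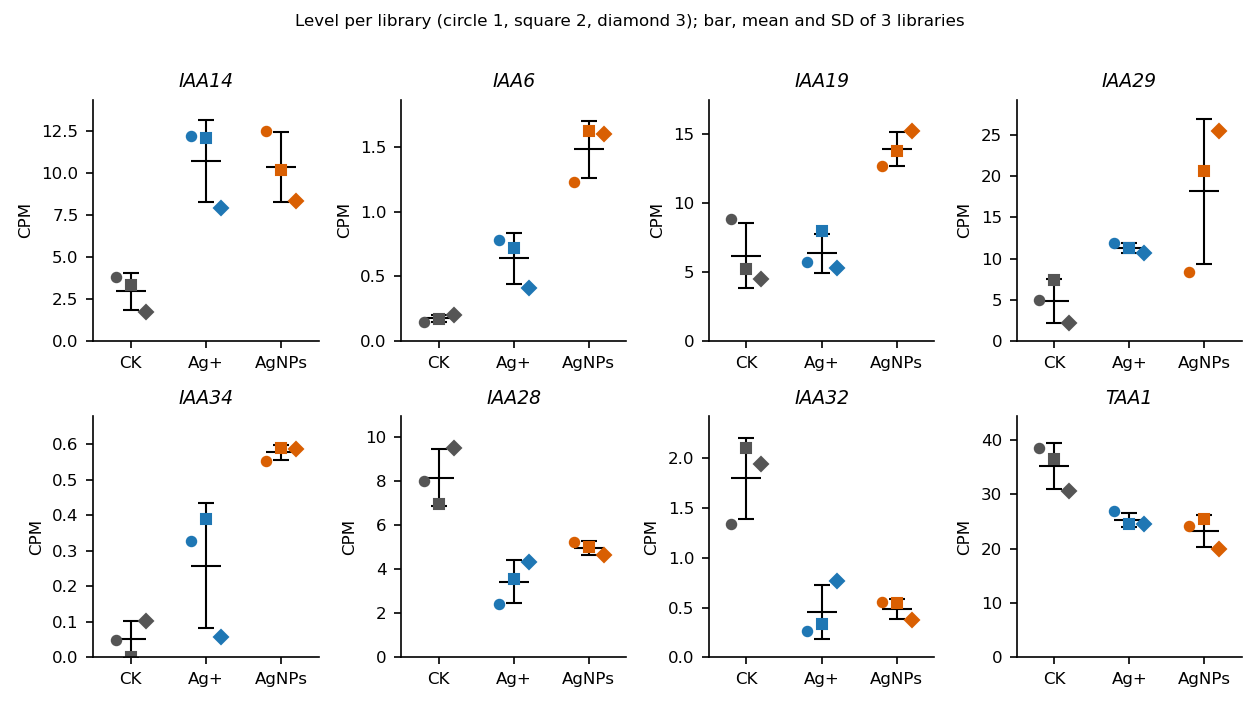
CPM in each library of the members called in a comparison and of IAA29 and IAA34, with the mean and SD of each group of 3 libraries as bars. The 3 AgNPs libraries of IAA19 lay at 12.7 to 15.2 CPM, above the 6 other libraries, and TAA1 lay at 19.98 to 26.8 CPM in the silver libraries against 30.5 to 38.6 in CK.

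None of the 6 receptors was called in any comparison. TIR1 (AT3G62980), the first auxin receptor described, stood at 76.9, 102.3 and 82.1 CPM in CK, at 100.2, 110.7 and 101.5 with Ag+, and at 81.3, 57.4 and 68.5 with AgNPs. Its Ag+ libraries lay above its AgNPs libraries, and CK overlapped both. AgNPs against Ag+ gave -0.59 (SE 0.15, edgeR adjusted p = 0.116). That difference was called without AgNPs 1 (-0.73, adjusted p = 0.0473) and by DESeq2 (0.029).

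AFB5 (AT5G49980), the receptor known for its sensitivity to the herbicide picloram, had the same order. It stood at 60.8, 61.6 and 83.3 CPM in CK, at 76.1, 77.3 and 84.0 with Ag+, and at 62.9, 50.6 and 51.6 with AgNPs. Ag+ lay above AgNPs without overlap (log2 difference -0.52, SE 0.15, edgeR adjusted p = 0.15). AFB4 (AT4G24390), its nearest relative (80.3% identity), stood at 15.9, 16.0 and 11.9 CPM in CK, at 18.6, 18.1 and 19.1 with Ag+, and at 19.4, 16.8 and 14.1 with AgNPs. Its Ag+ libraries lay above CK (0.35, edgeR adjusted p = 0.277).

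AFB1 (AT4G03190), which is known for the rapid root response to auxin, stood at 14, 12.1 and 11.5 CPM in CK, at 19.1, 21.8 and 15.6 with Ag+, and at 16.4, 13.4 and 13.5 with AgNPs. Ag+ lay above CK (0.59, SE 0.16, edgeR adjusted p = 0.0695), and DESeq2 called it (adjusted p = 0.0336). AFB2 (AT3G26810) stood at 57.9, 66.4 and 61.1 CPM in CK, 64.9, 66.6 and 65.2 with Ag+, and 63.8, 60.9 and 63.4 with AgNPs. AFB3 (AT1G12820) stood at 21.9, 25.5 and 28.1 CPM in CK, at 22.6, 24.8 and 25.6 with Ag+, and at 21.2, 24.6 and 23.8 with AgNPs. The fitted log2 changes of AFB2 and AFB3 lay between -0.12 and 0.09 in the 3 comparisons, none called. Annotated genes on the other strand share exon bases with 3 receptors: AT4G04455 (0 to 2 counts per library) 423 and AT4G03180 (83 to 246 counts) 51 of the 2324 of AFB1, AT1G04977 (0 to 5) 638 and AT1G12810 (231 to 365) 63 of the 2234 of AFB3, and AT4G24380 (104 to 242) 515 of the 2917 of AFB4, and with the strand setting unknown such reads cannot be told apart. By level per kilobase of exon TIR1, AFB5 and AFB2 stood above AFB3, and AFB1 and AFB4 lowest. TIR1 and AFB5 overlapped in the CK libraries, as did AFB5 and AFB2, and AFB1 and AFB4. Per kilobase of coding sequence AFB2 stood above AFB5, and AFB4 above AFB1.

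Summed over the 6 receptors, CK libraries held 247 to 284 CPM, those with Ag+ 301.5 to 319 and those with AgNPs 224 to 265, a description given without a test. Over the 29 Aux/IAA genes the sum was 708 to 979, 775 to 943 and 893 to 1018 CPM, and these groups overlapped. Against Ag+, AgNPs gave 0 calls among the 31 genes with edgeR, beside 0.684% of all genes (0.508% higher, 0.176% lower), and 8 at an unadjusted p under 0.05 (14.8% of all genes). DESeq2 called 2, IAA19 and TIR1, beside 3.99% of all genes. The groups did not overlap in 10 of the 31, beside 22.1% of all genes. The receptors had log2 differences of -0.59 to -0.06, all negative, with a median of -0.27, while the 24 Aux/IAA genes had a median of 0.22. Over all genes it was -0.01. One gene, IAA19, was called without CK 1 or CK 3 (1.19% and 1.54% of all genes), and TIR1 without AgNPs 1 (2.21%). Without both CK 3 and AgNPs 1 the count was 4 (IAA19, IAA29, TIR1 and AFB5), in a fit that called 6.39% of all genes.

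**Figure D4:**
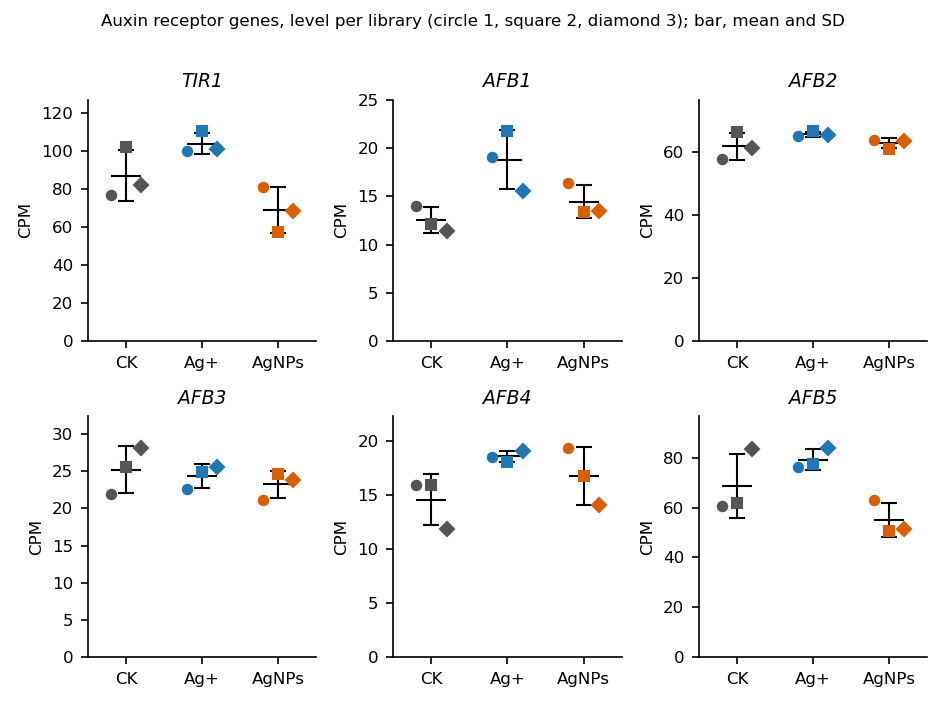
CPM of the 6 auxin receptor genes in each library, with the mean and SD of each group of 3 libraries as bars. TIR1 stood at 100.2 to 110.7 CPM with Ag+ and at 57.4 to 81.3 with AgNPs, and AFB2 at 57.9 to 66.6 in all 9 libraries.

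The other 14 tested members were not called in any comparison, with fitted log2 values against CK of -0.55 to 0.89. Those of IAA3 (SHY2), a regulator of root growth, were -0.04 and 0.46, and those of IAA17 (AXR3), also a root growth repressor, 0.09 and 0.35. The gene AT1G04230 on the other strand (75 to 163 counts per library, not called) covers 39.6% of the exon bases of IAA3. With the strand setting unknown, reads there cannot be told apart. IAA17 stood at 34.8 CPM in AgNPs 1, the library with the raised root markers, and at 12.5 to 21.5 in the other libraries. IAA12 (BODENLOS), which acts in the embryo, had -0.01 and 0.01. IAA30, without the degron core, had 0.89 and 0.26.

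Beside TAA1, the auxin synthesis genes YUC8 and YUC9 rose with both forms of silver. Of 9 tested synthesis genes besides TAA1, 2 rose and 0 fell in each silver comparison, beside 3.52% of all genes called higher with Ag+ and 2.23% with AgNPs. YUC8 stood at 6.05, 3.76 and 4.81 CPM in CK, at 12.9, 10.9 and 12 with Ag+, and at 10.2, 16.3 and 19.8 with AgNPs. Its log2 fold change was 1.29 with Ag+ (edgeR adjusted p = 0.0199) and 1.66 with AgNPs (edgeR adjusted p = 0.00869). YUC9 stood at 0.447, 0.114 and 0.205 CPM in CK, at 4.76, 1.83 and 9.03 with Ag+, and at 1.54, 5.07 and 8.74 with AgNPs (4.29, edgeR adjusted p = 0.0247, and 4.27, edgeR adjusted p = 0.0338). Its CK libraries all lay under the 0.5701 CPM that the filter on low counts asks for, so it passed only through the silver groups where it is high. The calls of YUC9, and the counts of 2 of 9 that include it, are thus a description. YUC8 lost its Ag+ call without CK 2 (adjusted p = 0.0756), Ag+ 1 (0.0707), Ag+ 2 (0.0587) or Ag+ 3 (0.054). YUC9 lost its calls without CK 1, CK 2, CK 3 or Ag+ 1 (0.0513 to 0.0947 with Ag+, 0.0565 to 0.146 with AgNPs), and without Ag+ 3, AgNPs 2 or AgNPs 3 in 1 of the comparisons (0.0615, 0.0954 and 0.0948).

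Light and growth regulators act upstream of YUC8 and of IAA19 and IAA29 in seedlings. Of 9 tested, 3 rose and 1 fell with Ag+, and 2 rose and 1 fell with AgNPs, beside 5.57% and 3.32% of all genes called. PIF4, a basic helix-loop-helix factor that promotes elongation, stood at 74.7, 37.1 and 29.7 CPM in CK, at 272, 234 and 174 with Ag+, and at 185, 159.5 and 163 with AgNPs. It rose by 2.26 with Ag+ (SE 0.33, edgeR adjusted p = 0.00627) and by 1.84 with AgNPs (SE 0.32, edgeR adjusted p = 0.0177). The AgNPs call was lost without CK 2 (adjusted p = 0.0882), AgNPs 2 (0.0612) or AgNPs 3 (0.0569). HFR1, a PIF inhibitor, stood at 1.14, 0.455 and 1.02 CPM in CK, at 2.42, 4.06 and 3.11 with Ag+, and at 3.26, 6.99 and 5.65 with AgNPs. Both silver groups lay above CK, and HFR1 rose by 1.85 (edgeR adjusted p = 0.028) and 2.58 (edgeR adjusted p = 0.00894), the former lost without CK 2 (0.0845), Ag+ 1 (0.0518), Ag+ 2 (0.109) or Ag+ 3 (0.0654). PIF3, a PIF factor of dark-grown seedlings, stood at 29.3, 22.3 and 30.2 CPM in CK, at 10.7, 9.61 and 9.73 with Ag+, and at 6.70, 8.61 and 10.2 with AgNPs, with every silver library below CK. It fell by 1.45 and 1.68 (edgeR adjusted p = 0.00238 and 0.00154), and PIF1 rose by 0.67 with Ag+ (edgeR adjusted p = 0.0087).

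In the other groups calls stand beside 3.52% of all genes called higher and 2.05% lower with Ag+. With AgNPs these shares were 2.23% and 1.09%. At such shares 0 calls in a short list are no result for it. Of 15 ARF genes, ARF5 (0.71, edgeR adjusted p = 0.0362) and ARF3 (0.60, edgeR adjusted p = 0.0463) rose with Ag+ and 0 were called with AgNPs. With the replicate block neither was called (adjusted p = 0.0539 and 0.0568), nor with only the 6 libraries compared. Neither was called without any single library other than AgNPs 1 (0.056 to 0.148). Of 14 tested transport genes the efflux carrier gene PIN4 rose with Ag+ (0.60, edgeR adjusted p = 0.00773) and AgNPs (0.50, edgeR adjusted p = 0.0245), the latter lost without CK 1 (0.0585), CK 2 (0.0769), AgNPs 2 (0.113) or AgNPs 3 (0.0981). ABCB4, an auxin transporter, fell by 1.00 with Ag+ (edgeR adjusted p = 0.0087). Of 6 conjugation genes, 13 genes of the ubiquitin ligase and corepressors, and 5 other auxin targets, 0 were called with Ag+. With AgNPs only ACS4 among them was called, an enzyme of ethylene synthesis (2.03, edgeR adjusted p = 0.0418), and the call was lost without each library but AgNPs 1 (0.0563 to 0.148). The list medians of the log2 fold change with Ag+ and AgNPs were 0.54 and 0.30 for synthesis, 0.67 and 0.80 for light and growth regulators, 0.17 and 0.11 for ARF genes and 0.25 and 0.25 for transport. They were 0.45 and 0.56 for conjugation, -0.11 and -0.09 for the ligase and corepressors and 0.57 and 0.69 for other targets, beside -0.01 and -0.003 over all genes. Between both forms of silver, ABCB4 was the 1 gene of these lists that was called, beside 0.684% of all genes.

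The SAUR genes are short, fast auxin-responsive genes for cell expansion. Of 54 tested, 5 rose and 1 fell with Ag+, and 6 rose and 1 fell with AgNPs, with medians of 0.04 and 0.31 over the 54. Of all genes tested, 3.52% were called higher and 2.05% lower with Ag+, and 2.23% and 1.09% with AgNPs. The coding sequences of SAUR19 to SAUR24 are 87.7% to 95.2% identical, so the authors' counting could have split their reads and single values are uncertain. All 5 genes that rose with Ag+ lie in this group, and the same 5 rose with AgNPs. The other gene that rose with AgNPs was listed by its locus identifier alone, AT5G18030, and is not counted as lying outside this group. The counts are thus no result for the SAUR genes as a whole. SAUR19 rose by 1.84 and 1.90 (edgeR adjusted p = 0.00912 and 0.0101), SAUR23 by 1.63 and 2.24 (0.0214 and 0.00689), and SAUR22 by 1.94 and 2.01 (0.0246 and 0.0288). SAUR36 fell by 1.71 with Ag+ (edgeR adjusted p = 0.00763), and SAUR46 fell by 2.94 with AgNPs (edgeR adjusted p = 0.0279). SAUR46 passed the filter on low counts only through CK, where it is high (0.794, 2.28 and 0.818 CPM), so its call is a description. The calls of SAUR19 with AgNPs (without AgNPs 3, 0.0503) and SAUR23 with Ag+ (without CK 1, CK 2, Ag+ 1, Ag+ 2 or Ag+ 3, 0.0599 to 0.0704) were lost. SAUR22 lost its Ag+ call without CK 2, CK 3 or any single Ag+ library (0.0503 to 0.0853). Its AgNPs call was lost without CK 2, CK 3, Ag+ 1, Ag+ 2, AgNPs 2 or AgNPs 3 (0.0502 to 0.113), and that of SAUR46 without CK 2, Ag+ 2 or any single AgNPs library (0.0517 to 0.112).

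**Figure D5:**
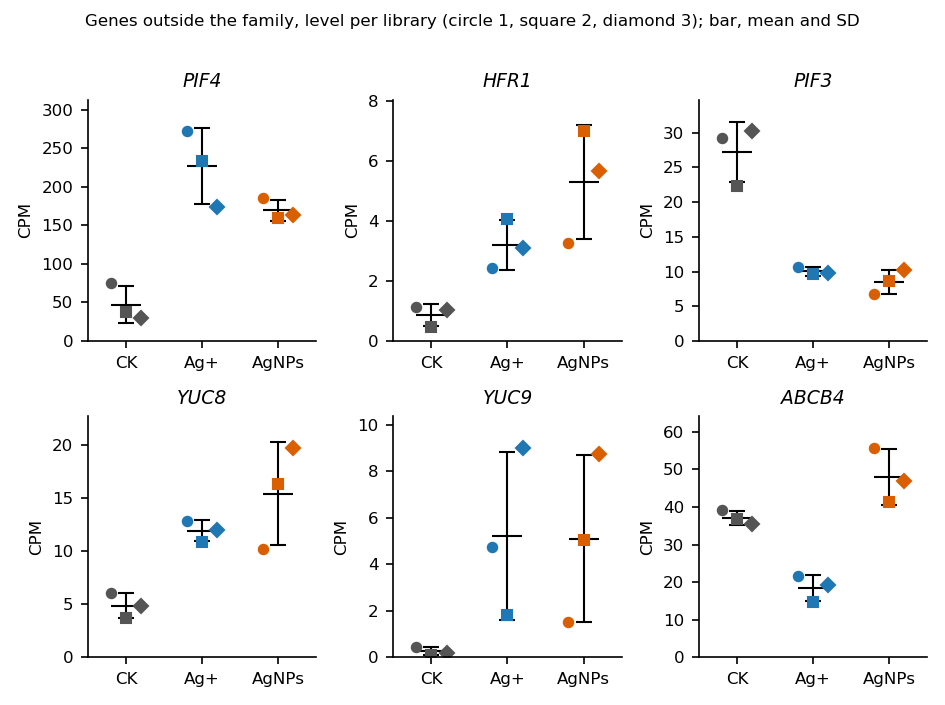
CPM in each library of PIF4, HFR1, PIF3, YUC8, YUC9 and ABCB4, with the mean and SD of each group of 3 libraries as bars. PIF4 stood at 29.7 to 74.7 CPM in CK and at 159.5 to 272 in the silver libraries, and ABCB4 at 14.8 to 21.7 CPM with Ag+, below the 6 other libraries.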

How the data were processed

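Leaf RNA was sequenced as 150 bp paired ends from rRNA-depleted libraries, per the labels' protocols. The values are raw read counts per gene that the authors deposited in 1 table. HISAT2 and TAIR10 are named in the submitters' processing notes. For the counter, strand setting and annotation, nothing is given in the sources used here. Of 38202 rows, 11452 were at 0 in all 9 libraries, and 19889 genes passed filterByExpr.

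All 9 libraries were fitted with edgeR 4.0.16 (R 4.3.3; TMM factors, robust quasi-likelihood, group means). Tests were two-sided, with Benjamini-Hochberg adjustment over the genes tested and a threshold of 0.05. The SE is the log2 fold change divided by the root of F. The biological coefficient of variation was 22.46%. On simulated data for Ag+ against CK with 19810 genes in the fit, 25 of 50 genes raised 2-fold and 50 of 50 raised 4-fold were called. Of genes lowered to 0.5 and 0.25 of their level, 22 of 50 and 48 of 50 were called, with 7 false calls. The changed genes were drawn above a minimum mean count, all genes had the same spread, and no library stood apart. These figures thus do not cover low-count members such as IAA6 and IAA32. Alternatives used DESeq2 1.42.0, limma 3.58.1 (voom), other scaling factors, no filter, the 6 libraries compared alone, a replicate block and fits without each library. A block in those 6 libraries was added after seeing the data. The deviations of same-numbered libraries correlated at 0.123, 0.186 and 0.231 between Ag+ and CK, which was taken as pairing, though no label states it. Between AgNPs and Ag+ they correlated at -0.092, -0.207 and 0.122, which was not taken as pairing. No 2 libraries were duplicates.

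Members and lists were chosen with earlier results of these data known. Values per library are given for the members called, the receptors, TAA1, the highest and lowest levels per length and uncalled members with a log2 change of at least 1. Of each list at most the 4 called genes with the smallest p are named. Sequences come from the RefSeq assembly TAIR10.1, the coordinates included. Protein sequences were not used here.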

Additional observations from a re-analysis of the deposited data

Results flagged for a closer look

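The auxin transporter gene ABCB4 differed between both forms of silver by a direct test. It stood at 39.2, 36.7 and 35.4 CPM in CK 1 to 3, at 21.7, 14.8 and 19.2 in Ag+ 1 to 3, and at 55.8, 41.2 and 46.9 in AgNPs 1 to 3. Ag+ lay below CK and AgNPs lay above it, with no overlap between any of the 3 groups. The log2 difference, AgNPs minus Ag+, was 1.37 (SE 0.17, edgeR adjusted p = 0.0198). The value of AgNPs against CK was 0.37 (edgeR adjusted p = 0.277). The call between both forms of silver was lost without Ag+ 1 (adjusted p = 0.0764), Ag+ 2 (0.0873), Ag+ 3 (0.083), AgNPs 2 (0.0929) or AgNPs 3 (0.0825), and in those 5 fits 0 of all genes tested were called.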

How the results depend on the processing

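Of the 43 single-gene values compared across the alternatives (18 each, 16 for IAA6 with Ag+), none turned its direction. Other genes were not compared in this way. For genes outside the family, the losses given above are mostly those without single libraries. With AgNPs the blocked fit of the 6 libraries also lost the calls of YUC8, YUC9, HFR1, PIN4, ACS4, SAUR19, SAUR22, SAUR23 and SAUR46. Those 6 libraries without a block lost PIF4, YUC9, PIN4, ACS4, SAUR22 and SAUR46. With limma voom YUC9, ACS4 and SAUR46 were lost with AgNPs, and YUC9 and HFR1 with Ag+. With Ag+ against CK, 4 members were called. Of them 2 were called with only the 6 libraries compared (4.3% of all genes) and 2 with the replicate block (6.22%). Without single libraries 1 to 4 members were called, of which 1 to 3 were among the original 4, beside 2.07% to 6.82% of all genes. With AgNPs against CK, 4 were called; DESeq2 called these 4 and IAA29, IAA32 and IAA34, 7 in all. The 6 libraries alone gave 2 of the 4 (1.79% of all genes), and the replicate block in those 6 libraries gave 1 (0.997%). Fits without single libraries gave 2 to 3 members, of which 2 to 3 were among the 4, beside 1.11% to 4.02% of all genes. For AgNPs against Ag+ the count of 0 became 2 with DESeq2, 1 with the 6 libraries alone and 1 with the block in them. Those fits called 3.99%, 2.1% and 1.84% of all genes. The count was 4 without both CK 3 and AgNPs 1 (6.39% of all genes), and 0 to 1 without single libraries (0% to 2.21%). The replicate block over all 9 libraries gave 3 and 0 in the latter 2 comparisons, beside 3.36% and 1.19% of all genes. Their library numbers were not taken as pairing (correlations of -0.207 to 0.122). The cause of these changes was not tested.

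Over all genes, the counts of 1108, 660 and 136 called ranged over 419 to 2003, 195 to 1603 and 0 to 1276. IAA6 could not be fitted for Ag+ against CK in the 6 libraries alone, where it did not pass the filter. Calls of IAA6, IAA32 and IAA34 rest on few counts, where depth limits what can be seen.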

Other observations

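Several members are chromosomal neighbours, transcribed away from each other with no coding gene between. IAA2 and IAA7 lie 12510 bases apart, and their log2 fold changes were -0.73 and -0.44 with Ag+ and -0.17 and 0.01 with AgNPs, none called. IAA3 and IAA17 lie 6388 bases apart, with -0.04 and 0.09 with Ag+ and 0.46 and 0.35 with AgNPs, none called. The values of IAA3 carry the limit of the overlapping gene given above. The conjugation gene GH3.3, whose enzyme links auxin to amino acids, stood at 31.4, 43.8 and 24.0 CPM in CK 1 to 3, at 50.8, 35.2 and 37.3 in Ag+ 1 to 3, and at 46.6, 53.6 and 71.5 in AgNPs 1 to 3. Its AgNPs libraries lay above CK (0.79, edgeR adjusted p = 0.127), and it was picked after its values were seen.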
